A study of Homo sapiens with 8 samples.

Results

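The genes described here were the splicing factor and hnRNP genes, 65 of the 19974 protein-coding genes that RefSeq places on chromosomes 1 to 22 and X of the human genome (GRCh38.p14). They were taken by symbol alone, but earlier results of these data were known when the set was chosen. They comprised 15 genes of SR and SR-like proteins (the SRSF genes with TRA2A, TRA2B and RBM39), 26 HNRNP genes, 12 SNRP genes, 9 SF3A and SF3B genes and 3 U2AF genes.

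Splicing cuts the introns out of a transcript while it is still being made. Small nuclear ribonucleoproteins (snRNPs), whose RNAs are held in rings of Sm proteins, recognise the ends of each intron, and the U2AF heterodimer and the SF3A and SF3B complexes place the U2 snRNP at the branch point. SR proteins mostly bind within exons and favour the use of nearby splice sites, whereas hnRNPs coat the nascent transcript and often act against them, and both kinds of protein commonly limit their own amount by changing how their own transcripts are spliced.

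The measurement was KAS-seq, in which N3-kethoxal reacts with unpaired guanines in living cells, so that the labelled fragments mark DNA opened by transcribing polymerases and other processes. The cells were HEK293T, an established line from human embryonic kidney. In 2 libraries the cells had spent 10 min in medium with 0.5 mM vitamin C (ascorbic acid) before 10 min with 5 mM N3-kethoxal, and in 2 control libraries they had received the kethoxal step alone. Each library had its own deposited peak list, and the input libraries, of which there were 4, were not analysed here.

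The vitamin C lists held 9816 and 9896 peaks on these chromosomes and the control lists 30351 and 24111. They covered 4.92 and 4.73 Mb with vitamin C, against 15.6 and 12.9 Mb in the controls. Because the lists differed this much, the same values were also taken in lists cut to 9816 peaks of lowest q, called lists of equal length below. Read numbers were not part of the lists, so the depth behind a peak is unknown and no counting interval is given. The labels do not say whether the 2 libraries of a group came from separate cultures, and p-values here measure only the spread between libraries. With 2 libraries against 2, an exact two-sided permutation test cannot give a p below 0.333. Of 6 genes listed as typical of HEK293T, VIM had a peak in all 4 lists, LIN28B in both controls only, and KRT8, KRT18, PAX2 and NEFM in none. Among markers of other cell types, SYN1 had a peak in all 4 lists and ALB in 1 vitamin C list.

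The 150 bases before the annotated start are shown for 10 members, because these stretches stood in different states in the lists. The sequences are RefSeq's (GRCh38.p14), 5′ to 3′ in the direction of transcription and ending at the base before the start. Capitals mark 4 short elements, read on both strands. These are the TATA box spelled TATAAA, the CCAAT box, the GC box spelled GGGCGG, and the core spelled CCGGAAG that ETS factors can bind. In the first set, peaks reached into the window from 250 bases before to 50 after the start in all 4 lists.

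SRSF3 (chr6:36594212-36594361, + strand): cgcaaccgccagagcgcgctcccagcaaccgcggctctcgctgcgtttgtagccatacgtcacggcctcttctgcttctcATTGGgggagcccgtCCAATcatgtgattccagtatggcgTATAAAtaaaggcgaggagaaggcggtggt
SRSF7 (chr2:38751495-38751644, - strand): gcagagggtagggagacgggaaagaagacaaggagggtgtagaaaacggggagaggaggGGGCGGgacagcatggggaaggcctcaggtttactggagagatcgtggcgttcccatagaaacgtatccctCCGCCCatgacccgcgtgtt
SNRPB (chr20:2470790-2470939, - strand): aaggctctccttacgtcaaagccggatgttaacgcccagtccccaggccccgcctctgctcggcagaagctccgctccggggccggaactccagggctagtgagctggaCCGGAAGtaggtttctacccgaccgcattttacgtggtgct
HNRNPA2B1 (chr7:26200747-26200896, - strand): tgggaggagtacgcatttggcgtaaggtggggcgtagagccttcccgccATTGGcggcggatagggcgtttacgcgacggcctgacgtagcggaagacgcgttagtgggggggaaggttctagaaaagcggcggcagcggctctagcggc
HNRNPC (chr14:21269443-21269592, - strand): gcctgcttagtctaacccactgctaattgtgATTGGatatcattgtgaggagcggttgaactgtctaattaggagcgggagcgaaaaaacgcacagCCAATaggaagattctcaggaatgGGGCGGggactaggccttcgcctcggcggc

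In the second set, the window was covered in both controls and in neither vitamin C list.

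SRSF5 (chr14:69766992-69767141, + strand): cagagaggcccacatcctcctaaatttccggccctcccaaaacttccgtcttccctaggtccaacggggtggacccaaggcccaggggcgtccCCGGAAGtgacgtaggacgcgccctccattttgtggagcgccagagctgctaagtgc
TRA2B (chr3:185938015-185938164, - strand): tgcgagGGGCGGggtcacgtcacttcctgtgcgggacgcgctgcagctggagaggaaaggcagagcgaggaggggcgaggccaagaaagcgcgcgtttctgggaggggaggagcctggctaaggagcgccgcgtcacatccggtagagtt
HNRNPD (chr4:82373992-82374141, - strand): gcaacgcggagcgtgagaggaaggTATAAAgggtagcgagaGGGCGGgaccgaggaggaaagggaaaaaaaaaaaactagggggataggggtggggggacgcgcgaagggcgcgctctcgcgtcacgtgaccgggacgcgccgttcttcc

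In the third set, no list had a peak in the window although peaks covered much of the gene behind it.

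HNRNPAB (chr5:178204383-178204532, + strand): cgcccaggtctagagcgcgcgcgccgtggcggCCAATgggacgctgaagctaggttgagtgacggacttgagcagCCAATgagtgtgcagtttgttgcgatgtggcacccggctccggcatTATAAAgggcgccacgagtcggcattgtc
HNRNPU (chr1:244864544-244864693, - strand): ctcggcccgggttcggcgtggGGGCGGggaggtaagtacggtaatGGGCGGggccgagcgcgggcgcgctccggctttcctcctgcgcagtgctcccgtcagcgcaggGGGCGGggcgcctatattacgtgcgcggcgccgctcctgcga

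The first set held different elements. SRSF3 and HNRNPAB, which stood in opposite states, both had TATAAA close to the start, 30 and 29 bases before it. SRSF7 and HNRNPC had GC boxes, SNRPB the ETS core and HNRNPA2B1 a single reversed CCAAT. Among the others, SRSF5 carried the ETS core, TRA2B a GC box, HNRNPD a GC box with TATAAA farther out, and HNRNPU 3 GC boxes. The printed letters did not sort by state in these 10 sequences.

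Opened DNA was detected at most splicing factor and hnRNP genes in both conditions, and less of their summed length was covered with vitamin C. Any overlap of a peak with the gene or its 1 kb flanks counted as a peak at that gene. A peak was found at 49 and 50 of the 65 members with vitamin C, against 57 and 54 in the controls. The numbers of peaks at them were 238 and 227 with vitamin C, against 451 and 396 in the controls, a log2 ratio of -0.87. Peaks covered 117 and 110 kb of the annotated gene lengths with vitamin C, against 282 and 244 kb in the controls, a log2 ratio of -1.21. The groups did not overlap for any of these 3 measures (p = 0.333 by the exact permutation test). In lists of equal length the first 2 turned round: 49 and 50 members had a peak with vitamin C, against 48 and 49 in the controls, and the peaks numbered 238 and 226 with vitamin C, against 215 and 209 in the controls (log2 ratio 0.13). The covered length kept its direction there, at 117 and 110 kb with vitamin C, against 197 and 171 kb in the controls (log2 ratio -0.69).

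Most members still had a peak with vitamin C. Of the 65 members, 45 had a peak in all 4 lists (kept), where the background was 17.5% of all protein-coding genes and 36.9% of those with a peak in any list. Another 6, SNRPA1, SNRPD3, SNRPG, SF3A1, SF3A3 and SF3B4, had a peak in both controls and 1 vitamin C list, against a background of 8.27% of all genes. The lost members, present in both controls but in no vitamin C list, were 3: SNRPC, HNRNPA1L2 and HNRNPUL2 (background 9.47% of all genes and 19.9% of those with a peak in any list). No member had the opposite pattern (background 0.025% of all genes). In lists of equal length 0 members were lost and 3 had the opposite pattern, and without either vitamin C replicate 6 were lost. For these counts the share of all protein-coding genes was not taken, so they have no background. SRSF8, HNRNPLL and SNRPF had other combinations. The 8 members without a peak in any list were SNRPN, SRSF12, U2AF1L4, HNRNPA1L3 and HNRNPCL1 to HNRNPCL4 (background 52.5%). HNRNPA1L3 and the HNRNPCL genes resemble HNRNPA1 and HNRNPC in sequence, and how reads that match several places were treated is not given in the sources used here.

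Coverage, the percent of the annotated gene length under peaks, was lower in both vitamin C lists than in both controls at 49 of the 65 members, where the background was 26.9% of all protein-coding genes and 56.6% of those with a peak in any list. It was higher in both vitamin C lists at 0 members (background 0.0601%). The median over the 65 members was 4.14% and 3.20% with vitamin C, against 17.3% and 15.2% in the controls, a difference of -12.6 percentage points (exact two-sided permutation p = 0.333). Over all protein-coding genes the median was 0% in each list. Over those with a peak in any list it was 0% in both vitamin C lists, against 1.64% and 1.09% in the controls. In lists of equal length, 30 members were lower in both vitamin C lists (background 9.82% of all genes and 28.6% of those with a peak in any list) and 2, SF3A2 and SNRPF, were higher (background 1.33%). In the lists as deposited, the shares lower were closer at like mean control coverage. At 40% or more, 94.4% of members and 88.9% of other protein-coding genes were lower. The shares were 91.7% and 93.1% between 20% and 40%, and 100% and 87.6% between 10% and 20%. They were 90% and 85.6% between 5% and 10%, and 44.4% and 53.2% above 0% and below 5%. These shares were not tested.

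**Figure D1:**
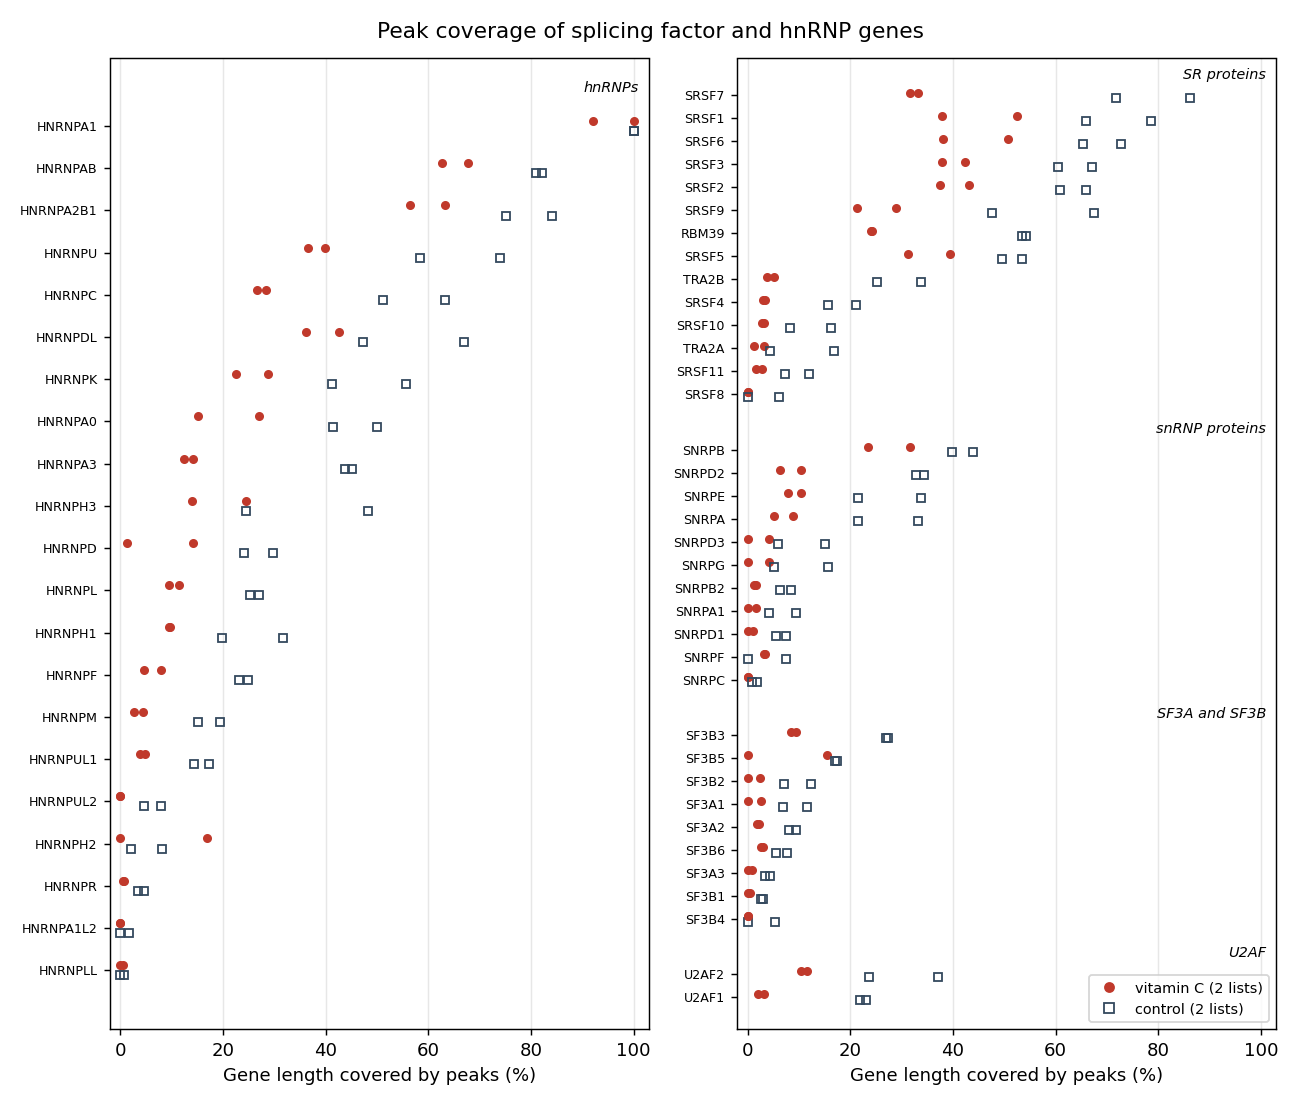
Percent of the gene length covered by peaks (x axis) for each of the 57 members with a peak in any list (y axis), hnRNPs on the left and the other groups on the right, ordered by control coverage. Filled circles are the vitamin C lists and open squares the control lists, 2 each; at 49 members both circles lie left of both squares.

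High coverage was frequent among the members, whose median gene length was 13.7 kb, against 24.2 kb over all protein-coding genes. The backgrounds here were not matched for length, and 52.5% of all protein-coding genes had no peak in any list. In both vitamin C lists 16 members had at least 20% of their length covered (background 1.1% of all genes), and in both controls 29 did (background 3.17%). At least 50% was covered in both vitamin C lists at 3 members, HNRNPA1, HNRNPA2B1 and HNRNPAB (background 0.245%). In both controls 11 passed that mark, HNRNPC, HNRNPU, RBM39, SRSF1, SRSF2, SRSF3, SRSF6 and SRSF7 in addition (background 0.766%). The members held 2.93% and 2.89% of each vitamin C list's covered bases, against 2.10% and 2.21% of each control list's, with gene flanks of 1 kb included (difference 0.753 percentage points, exact two-sided permutation p = 0.333). At equal length these shares were 2.93% and 2.90% with vitamin C, against 2.94% and 2.80% in the controls (p = 1, exact permutation test).

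The SR group had the highest median coverage, 21.3% and 24.3% with vitamin C, against 53.4% and 47.6% in the controls. SRSF7, whose product binds exonic enhancers and takes part in mRNA export (chr2:38743599-38751494), was covered over 33.2% and 31.6% of its length with vitamin C, against 86.3% and 71.8% in the controls. SRSF1, the founding SR protein and a regulator of many splice-site choices (chr17:57989038-58007246), had 52.5% and 37.9% with vitamin C, against 78.6% and 66.0% in the controls. SRSF6 (chr20:43457896-43464243) had 50.7% and 38.1% with vitamin C, against 65.4% and 72.7% in the controls. In all 3 genes the groups did not overlap, and the distance between them was widest at SRSF7.

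SRSF3, the smallest SR protein and an mRNA export adaptor (chr6:36594362-36605600), had 42.3% and 37.9% with vitamin C, against 67.0% and 60.5% in the controls. TRA2B, an SR-like activator of exon inclusion (chr3:185914558-185938014), had 5.13% and 3.67% with vitamin C, against 25.2% and 33.7% in the controls, and so kept 14.9% of its mean control coverage. SRSF3 by the same measure kept 62.9%. RBM39, a U2AF-related coactivator and splicing factor (chr20:35701347-35742260), had 24.0% and 24.3% with vitamin C, against 54.2% and 53.4% in the controls, with the libraries of each condition close together. Of the 15 genes of this group 13 were kept and 13 were lower in both vitamin C lists, 12 of the group in lists of equal length. SRSF8 had a peak in 1 control alone, and SRSF12 had none.

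The remaining SR genes ranged widely in coverage. SRSF2 had 43.2% and 37.4% with vitamin C, against 65.9% and 60.9% in the controls. SRSF9, an SR protein with a short arginine and serine rich tail, had 21.3% and 28.9% with vitamin C, against 67.5% and 47.6% in the controls. SRSF5 had 39.4% and 31.2% with vitamin C, against 53.4% and 49.6% in the controls, and its promoter window, printed above, was covered in both controls and in neither vitamin C list. SRSF4, SRSF10, SRSF11 and TRA2A had between 1.25% and 3.45% with vitamin C, against 4.24% to 21.1% in the controls, the least covered genes of the group after SRSF8 and SRSF12. At TRA2A, the second TRA2 activator, the groups overlapped in lists of equal length, with 1.25% and 3.17% with vitamin C, against 3.04% and 3.43% in the controls.

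The hnRNP genes held the highest single values, with a median of 10.5% and 6.09% with vitamin C, against 25.9% and 21.4% in the controls. HNRNPA1, one of the most abundant nuclear RNA-binding proteins and a splicing repressor (chr12:54280726-54287087), was covered over 100% and 92.1% of its length with vitamin C, against 100% in both controls. The groups overlapped at HNRNPA1. Its longest peak spanned 10813 and 5351 bp with vitamin C, against 12535 and 12016 bp in the controls, and its window also holds part of CBX5. HNRNPAB (chr5:178204533-178211163) had 62.8% and 67.7% with vitamin C, against 82.1% and 81.1% in the controls. HNRNPA2B1, which binds RNA in the nucleus and in transport granules (chr7:26189927-26200746), had 56.5% and 63.3% with vitamin C, against 75.1% and 84.1% in the controls. At both genes the groups did not overlap, although these were among the members that kept most of their coverage. At HNRNPA2B1 the sign depended on the peaks used: with only peaks of a fold of at least 6.055 the vitamin C mean was higher by 11.97 percentage points.

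HNRNPU, which binds RNA and nuclear scaffold DNA (chr1:244850297-244864543), had 39.9% and 36.6% with vitamin C, against 73.9% and 58.3% in the controls. HNRNPC, which binds uridine runs in introns (chr14:21209147-21269442), had 26.6% and 28.3% of a gene of 60.3 kb covered with vitamin C, against 63.2% and 51.2% in the controls, in 27 and 29 separate peaks against 32 and 38. HNRNPDL (chr4:82422564-82430462) had 42.6% and 36.1% with vitamin C, against 66.9% and 47.2% in the controls. HNRNPH2 (chrX:101408222-101414133) was the only member whose mean was higher with vitamin C: 16.8% and 0% were covered, against 1.98% and 8.14% in the controls, and the groups overlapped. Without vitamin C replicate 1 the difference at HNRNPH2 was -5.06 points. Of the 26 hnRNP genes 18 were kept and 16 were lower in both vitamin C lists, 11 of the group in lists of equal length.

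Among the other hnRNP genes, HNRNPA3, a relative of HNRNPA1 (chr2:177212794-177223959), had 14.2% and 12.4% with vitamin C, against 43.7% and 45.2% in the controls, and kept 29.9% of its mean control coverage. HNRNPK (chr9:83968083-83980615) had 22.6% and 28.8% with vitamin C, against 55.7% and 41.2% in the controls. HNRNPA0, another relative of HNRNPA1 (chr5:137745651-137754363), had 15.05% and 26.9% with vitamin C, against 49.99% and 41.4% in the controls. At these 3 genes both vitamin C values lay below both control values. At HNRNPH3 the groups just overlapped, at 24.56% and 14.0% with vitamin C, against 48.3% and 24.50% in the controls. HNRNPD had 14.1% and 1.27% with vitamin C, against 29.7% and 24.1% in the controls. HNRNPF, HNRNPH1, HNRNPL, HNRNPM, HNRNPR and HNRNPUL1 lay between 0.563% and 11.4% with vitamin C, against 3.51% to 31.7% in the controls, with no overlap of the groups at any of the 6. The groups lay apart in the lists as deposited but overlapped in lists of equal length at HNRNPD, HNRNPDL, HNRNPK, HNRNPM and HNRNPUL2.

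The 2 lost hnRNP genes had little coverage in the controls. HNRNPUL2 (chr11:62712630-62727457) had 0% in both vitamin C lists, against 7.96% and 4.61% in the controls. In lists of equal length HNRNPUL2 had 0% in the controls as well. HNRNPA1L2 (chr13:52617525-52643773) had 0% in both vitamin C lists, against 1.68% and 0% in the controls, where the peak of replicate 2 lay in the 1 kb flank.

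Genes of snRNP proteins had a median coverage of 2.37% and 2.48% with vitamin C, against 11.3% and 7.21% in the controls, below the SR and hnRNP groups in every list. SNRPB, which encodes the Sm proteins B and B′ (chr20:2461642-2470789), had the most, with 31.7% and 23.4% with vitamin C, against 43.9% and 39.8% in the controls. SNRPD2, another Sm ring protein (chr19:45687454-45692316), had 10.3% and 6.37% with vitamin C, against 34.4% and 32.8% in the controls. SNRPE (chr1:203861599-203871152), also of the Sm ring, had 10.3% and 7.86% with vitamin C, against 33.8% and 21.5% in the controls. None of these 3 genes showed overlapping groups, and SNRPB kept the largest part of its control coverage, 65.8%, against 24.8% at SNRPD2 and 32.8% at SNRPE.

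SNRPA, a U1 snRNP protein that binds a stem-loop of its RNA (chr19:40751203-40765389), had 8.82% and 5.14% with vitamin C, against 33.2% and 21.5% in the controls. SNRPD1 (chr18:21612314-21633520) had 0% and 0.990% with vitamin C, against 7.48% and 5.48% in the controls, the smallest nonzero ratio of the members with a peak in both controls. SNRPC, another protein of the U1 snRNP (chr6:34757505-34773857), was lost, with 0% in both vitamin C lists, against 1.76% and 0.838% in the controls. Of the 12 SNRP genes 6 were kept and 10 were lower in both vitamin C lists, 5 of the group in lists of equal length. SNRPA1, SNRPB2, SNRPD3 and SNRPG had between 0% and 4.17% with vitamin C, against 4.13% to 15.6% in the controls. At SNRPD3 the mean difference changed sign in lists of equal length, with 0% and 4.17% with vitamin C, against 1.99% and 0% in the controls. SNRPF, also of the Sm ring, had 3.07% and 3.37% with vitamin C, against 7.39% and 0% in the controls, and the groups overlapped. Its mean difference of -0.47 points was 3.22 in lists of equal length and without control replicate 1. SNRPN, a paralogue of SNRPB expressed mainly in brain, had no peak.

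The SF3A and SF3B genes, whose products are parts of the U2 snRNP, had a median coverage of 1.80% and 0.808% with vitamin C, against 6.83% and 9.45% in the controls. SF3B3 (chr16:70523816-70577668) had 9.32% and 8.39% with vitamin C, against 27.2% and 27.0% in the controls. SF3B5, a gene of 0.69 kb (chr6:144094884-144095573), had 15.4% and 0% with vitamin C, against 17.1% and 17.4% in the controls. SF3B2 (chr11:66052364-66069308) had 0% and 2.45% with vitamin C, against 7.04% and 12.3% in the controls. The groups did not overlap at these 3 genes, but vitamin C replicates 1 and 2 differed over the presence of any covered base at SF3B5 and SF3B2.

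SF3A1 (chr22:30331988-30356894) had 2.52% and 0% with vitamin C, against 6.83% and 11.6% in the controls. SF3A3 (chr1:37956975-37990022) had 0% and 0.808% with vitamin C, against 4.30% and 3.28% in the controls. SF3B1, which contacts the branch point and is the target of several splicing inhibitors (chr2:197389784-197435093), had 0.503% and 0% with vitamin C, against 2.58% and 3.03% in the controls. SF3B4 (chr1:149923317-149927803) had a covered base within the gene only in control replicate 2, at 5.24%. Of the 9 genes 6 were kept and 8 were lower in both vitamin C lists, but 3 were kept in lists of equal length and likewise with a fold of at least 6.055. In lists of equal length SF3B3 was the 1 gene of the group that was lower, and the mean difference changed sign at SF3A2, SF3B1, SF3B2, SF3B5 and SF3B6.

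U2AF1, the subunit that reads the AG at the end of the intron (chr21:43092956-43107578), had 3.17% and 1.99% with vitamin C, against 22.99% and 21.97% in the controls, so that 11.5% of the control mean remained. U2AF2, the subunit that binds the polypyrimidine tract (chr19:55655035-55674716), had 11.5% and 10.3% with vitamin C, against 37.0% and 23.7% in the controls. Both were kept, and the groups did not overlap at either gene. At U2AF2 the groups overlapped in lists of equal length, with 11.5% and 10.3% with vitamin C, against 20.2% and 11.0% in the controls.

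**Figure D2:**
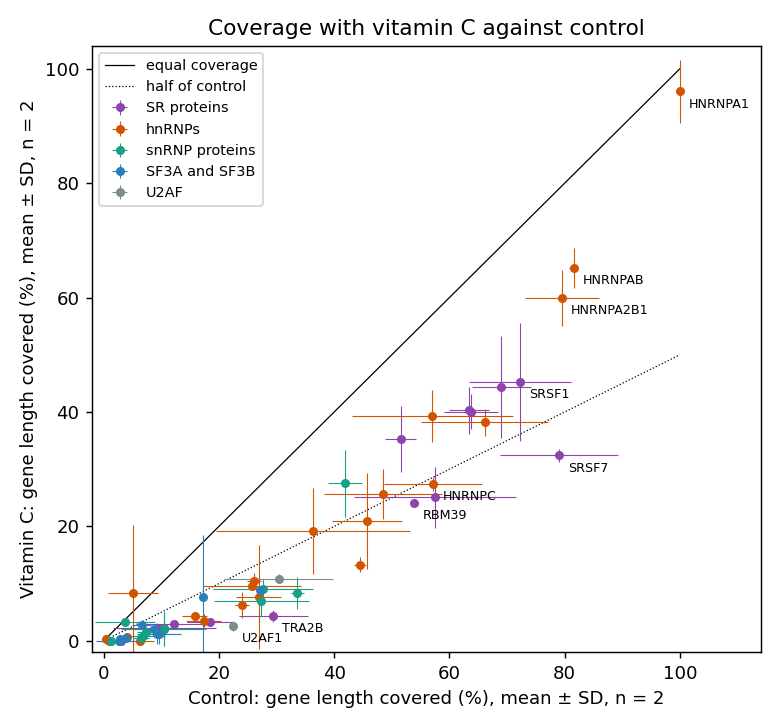
Mean percent of gene length covered with vitamin C (y axis) against control (x axis) for the 57 members with a peak in any list, coloured by group, with SD over 2 libraries each. The solid line marks equal coverage and the dotted line one vitamin C unit for every 2 control units; HNRNPA1 lies close to the solid line, and TRA2B and U2AF1 lie far below the dotted one.

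Summed over genes, the covered length with vitamin C was 48.7% of control in hnRNP genes, 44.0% in SR genes, 31.9% in SNRP genes, 27.2% in U2AF genes and 26.5% in SF3A and SF3B genes. It was 43.3% over all 65 members and 30.9% over all protein-coding genes. The groups of members also differed in how much was covered in the controls, and the part left was larger where control coverage was larger. At the 18 members with at least 40% mean control coverage, the median gene had 62.7% of its control coverage with vitamin C, against 53.3% at 280 other protein-coding genes of that coverage. At the 12 members between 20% and 40% the median was 30.6%, against 34.1% at 465 other genes. At the 10 members between 5% and 10% it was 17.0%, against 22.1% at 1061 other genes. These medians describe the lists and were not tested. Among genes with a peak in both controls, all 34 members whose best control peak ranked above a mean percentile of 91.3 by fold were kept, as were 95.3% of the other genes there.

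Most bases of member genes covered with vitamin C were also covered in a control. Of the 74.5 kb of member genes covered in both vitamin C lists, 99.1% was also covered in at least 1 control. Of the bases covered in at least 1 vitamin C list, the value was 94.9%. These overlaps were not taken for other genes. Of the 186 kb covered in both controls, 38.1% was covered in both vitamin C lists and 66.6% in at least 1.

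The longest peak of most members was shorter with vitamin C, while the median width over all peaks of a list was 357 and 351 bp with vitamin C, against 361 and 379 bp in the controls. The longest peak at a gene was shorter in both vitamin C lists than in both controls at 47 members, where the background was 29.6% of all genes and 62.2% of those with a peak in any list, and longer at 0 (background 0.12%). A gene without a peak counts as 0 bp here, and 7 of the 47 had none in at least 1 vitamin C list. Its median over the 65 members was 574 and 519 bp with vitamin C, against 1210 and 1055 bp in the controls. A peak of 2 kb or more stood in both vitamin C lists at 7 members, HNRNPA1, HNRNPAB, HNRNPDL, HNRNPU, SF3B3, SRSF1 and TRA2B (background 0.461%), and in both controls at 22 (background 1.86%). At HNRNPD, which binds AU-rich elements in mRNAs, the longest peak was 786 and 347 bp with vitamin C, against 6362 and 5392 bp in the controls. At SRSF2, an SR protein that binds enhancers in exons, it was 726 and 1024 bp with vitamin C, against 4910 and 6382 bp in the controls. Peaks that touched a gene or its 1 kb flanks were measured at full length, and peaks wholly farther out did not count. Past the end of HNRNPD, 81.0% and 82.4% of the sequence 1 to 5 kb out was covered with vitamin C, against 100% in both controls.

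At 4 members, HNRNPAB, SNRPB, SRSF2 and SRSF7, coverage was lower while the number of separate peaks was higher in both vitamin C lists than in both controls (background 0.19% of all genes and 0.401% of those with a peak in any list). SRSF2 had 4 and 3 peaks with vitamin C, against 1 and 2 in the controls. HNRNPAB had 4 in each vitamin C list, against 2 in each control.

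**Figure D3:**
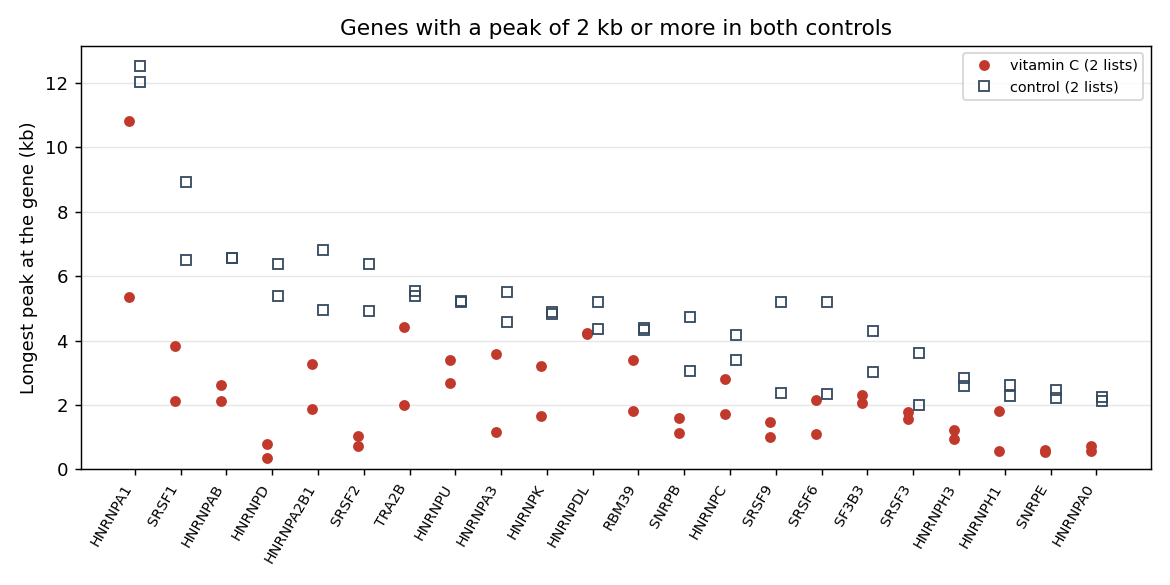
Length in kb of the longest peak at each of the 22 members with a peak of 2 kb or more in both controls, ordered by control length. Filled circles are the vitamin C lists and open squares the control lists, 2 each; the controls reach 12535 bp at HNRNPA1, and both circles lie below both squares at all genes shown.

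The direction of transcription could be taken from the RefSeq promoter table for 57 members, and the others, HNRNPA1, HNRNPA1L3, HNRNPCL3, RBM39, SF3B3, SNRPD1, SRSF2 and TRA2A, were not used for positions. In these 57 genes coverage was lower in all 4 zones. As a ratio to control it was highest at and beyond the end of the gene, where the difference in percentage points was also larger than at the start and in the body. Within 1 kb of the start, 11.8% and 9.43% of the sequence was covered with vitamin C, against 24.4% and 21.5% in the controls. In the gene body between the end zones it was 7.59% and 7.24% with vitamin C, against 19.5% and 16.5% in the controls. In start and body alike, both vitamin C values lay below both control values. Within 1 kb of the end it was 22.9% and 22.8% with vitamin C, against 41.0% and 37.2% in the controls. Between 1 and 5 kb past the end it was 24.8% and 23.1% with vitamin C, against 40.3% and 36.2% in the controls. The vitamin C means were thus 46.2%, 41.1%, 58.4% and 62.6% of the control means in these 4 zones, each with an exact permutation p of 0.333. At 15756 other protein-coding genes the same 4 values were 40.3%, 28.6%, 39.9% and 37.8%.

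**Figure D4:**
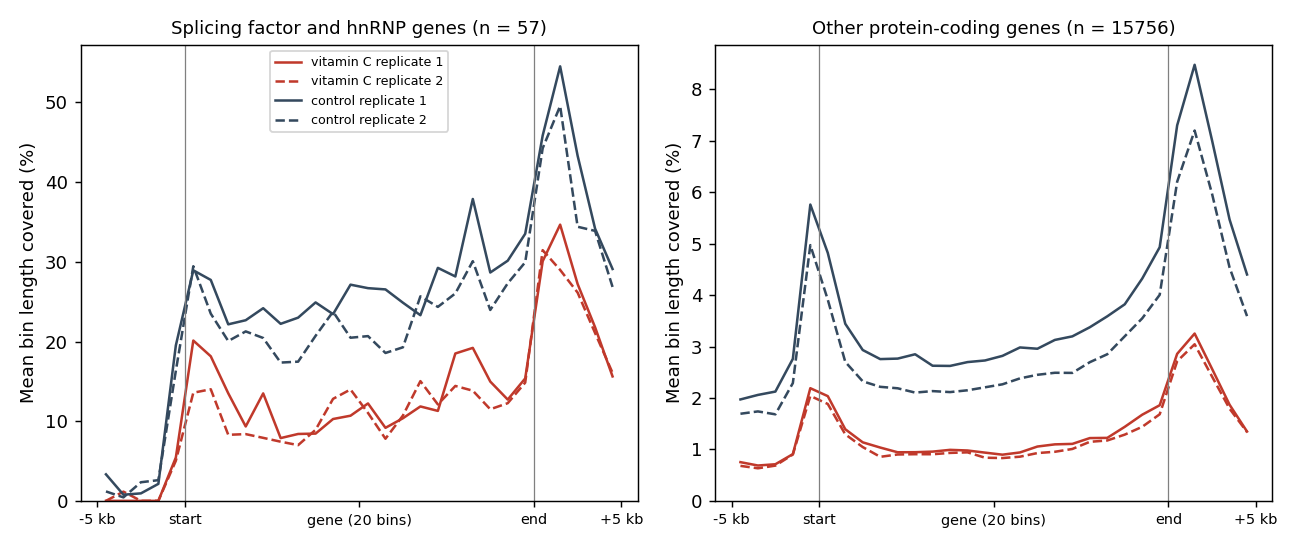
Mean percent of each bin covered by peaks (y axis, with its own scale in each panel) along 57 members (left) and 15756 other protein-coding genes (right), in 5 bins of 1 kb before the start, 20 equal bins of the gene and 5 bins of 1 kb past the end. Each line is 1 list. The members' group means are highest 1 to 2 kb past the end, at 31.8% with vitamin C and 52.0% in the controls. The line of vitamin C replicate 2 is highest within the first 1 kb past the end, at 31.5%.

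Of the bases covered in a gene and its 1 kb flanks, a larger share lay within 1 kb of the gene's end with vitamin C. The end zone held 22.4% and 23.6% of the members' covered bases with vitamin C, against 17.2% and 18.1% in the controls (difference 5.37 percentage points). The body held 66.0% and 66.6% with vitamin C, against 72.5% and 71.4% in the controls (-5.68 points). Both had an exact two-sided permutation p of 0.333. The start zone held 11.5% and 9.79% with vitamin C, against 10.2% and 10.5% in the controls, and these groups overlapped (p = 1, exact permutation test). At the 15756 other protein-coding genes the end zone held 21.7% and 21.3% with vitamin C, against 17.2% and 17.9% in the controls, and the body 57.4% and 58.2% with vitamin C, against 66.4% and 64.9% in the controls, so these shares differed in the same direction there. At equal length the end zone held 22.4% and 23.7% with vitamin C, against 20.3% and 22.8% in the controls, and the groups overlapped (p = 0.667, exact permutation test).

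Coverage between 1 and 5 kb past the end was 3.27 and 3.19 times that of the gene body with vitamin C, against 2.07 and 2.187 times in the controls (exact two-sided permutation p = 0.333). For 30 members with no other annotated gene within 5 kb past their end, the ratios were 4.63 and 4.38 with vitamin C, against 2.31 and 2.34 in the controls. Over the 57 members at equal length, they were 3.27 and 3.21 with vitamin C, against 2.63 and 3.03 in the controls. The groups did not overlap in any of these 3 comparisons, and the difference was smaller by over 1.5 times at equal length. At 15756 other protein-coding genes, coverage past the end was 2.26% and 2.15% with vitamin C, against 6.34% and 5.32% in the controls. Their bodies were covered over 0.185% and 0.178% with vitamin C, against 0.708% and 0.561% in the controls. The ratio was thus also higher with vitamin C there, and larger in every list than at the members.

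A covered base in the start zone was kept in all 4 lists at 15 of the 57 (background 6.84% of protein-coding genes with a strand), among them SRSF1, SRSF3, SRSF5, SRSF6, SRSF7, TRA2B, HNRNPA2B1 and HNRNPC. The start zone was lost at 7, namely HNRNPA1L2, HNRNPK, SF3B1, SF3B4, SNRPC, SRSF10 and SRSF4 (background 5.09%). The end zone was kept at 30 (background 6.22%) and lost at 6, HNRNPH3, HNRNPL, SF3A3, SF3B6, SNRPD2 and SNRPG (background 4.29%). Neither zone was gained at any member (backgrounds 0.00632% and 0.0253%).

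Single genes showed the whole range. SRSF3, whose start is printed in the first set, had 70.2% and 57.5% of its start zone covered with vitamin C, against 74.8% and 83.6% in the controls, and 31.7% and 27.1% of its body, against 61.5% and 51.9%. SRSF7 had 51.8% and 50.2% of its start zone covered with vitamin C, against 62.4% and 55.9% in the controls, and 25.4% and 29.1% of its body, against 84.8% and 66.3%. TRA2B, from the second set, had 11.6% and 11.0% of its start zone covered with vitamin C, against 50.8% and 61.0% in the controls. Its sequence 1 to 5 kb past the end was covered over 86.5% and 75.6% with vitamin C, against 89.8% and 94.5% in the controls.

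HNRNPAB, from the third set, had a covered start zone only in control replicate 1, at 2.399%, while its body was covered over 71.2% and 79.3% with vitamin C, against 95.0% and 94.5% in the controls. HNRNPK, which binds cytidine-rich RNA and DNA, lost its start zone, with 0% in both vitamin C lists, against 15.5% and 19.0% in the controls, while 78.0% and 64.7% of the sequence 1 to 5 kb past its end was covered with vitamin C, against 83.4% and 86.6% in the controls. HNRNPDL had its whole end zone covered in all 4 lists.

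The reach past the end was the run of 500 bp steps that each held any covered base, so it could include gaps. It was shorter in both vitamin C lists than in both controls at 15 of the 57 members (background 4.38%) and longer at 0 (background 0.0316%). HNRNPU reached 6.5 and 2.5 kb with vitamin C, against 14.5 kb in both controls, and the neighbouring gene COX20 lies 5.23 kb past its end. HNRNPD had no covered first step with vitamin C, against a reach of 7 and 8.5 kb in the controls, although 81.0% and 82.4% of the sequence 1 to 5 kb past its end was covered with vitamin C, against 100% in both controls. HNRNPC likewise had no covered first step with vitamin C, against 10 and 8.5 kb in the controls, and 61.1% and 43.8% of that sequence was covered with vitamin C, against 83.8% and 92.0% in the controls. Another annotated gene, LINC00641, lies 2.25 kb past the end of HNRNPC, within that sequence. In these 2 genes the first step past the end was not covered with vitamin C, and coverage resumed beyond it. SRSF7 reached 3 kb in both vitamin C lists, against 6 kb in both controls. SRSF3 reached 7 kb in both vitamin C lists, against 8 kb in both controls, and TRA2B 4.5 kb, against 5 kb. The last 2 differed by 1 or 2 steps only.

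The promoter table held 80 start windows of the 57 members, each from 250 bases before to 50 after a start. Peaks reached into 17 and 13 of these windows with vitamin C, against 37 and 30 in the controls. Among 22132 windows of all protein-coding genes, the shares were 4.24% and 4.17% with vitamin C, against 9.74% and 8.26% in the controls, and for the members they were 21.2% and 16.2%, against 46.2% and 37.5%. CCGGAAG was found in 26.2% of the members' windows and in 12.8% of all windows. TATAAA was found in 8.75% of the members' windows and 9.46% of all, CCAAT in 37.5% and 34.6%, and GGGCGG in 53.8% and 56.3%. The 13 member windows covered in all 4 lists had a median GC content of 58.3% and the 42 covered in none 65.0%, and over all genes these values were 58.7% and 63.0%. Windows of 1 gene overlap, and a match of letters does not show that a factor binds there.

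Neighbours share many of these windows. Another annotated gene lay within 1 kb of 42 members, a protein-coding one at 33 and a small RNA gene at 11, and a peak there counts for both. Without peaks that overlap another gene 40 members were kept and 2 lost, and the log2 ratio of covered length was -1.21, as with all peaks.

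Other splicing genes, 108 with a RefSeq entry that carry other symbols, had a median coverage of 1.01% and 0.703% with vitamin C, against 6.01% and 3.79% in the controls. The median length of these genes was 23.2 kb. Of these, 67 (62%) were kept, 11 (10.2%) were lost and 83 (76.9%) were lower in both vitamin C lists. Their summed covered length with vitamin C was 35.6% of control. SFPQ, a paraspeckle protein, had 55.7% and 39.0% with vitamin C, against 76.3% and 74.4% in the controls. RBMX, an hnRNP encoded under another symbol, had 53.3% and 33.3% with vitamin C, against 73.4% and 76.6% in the controls. DDX5, an RNA helicase, had 43.1% and 23.3% with vitamin C, against 66.3% and 64.9% in the controls. These 3 had the highest control coverage of the list and resembled the leading members. The lost genes of highest control strength were CELF1, LSM11, MAGOH, CTNNBL1, EFTUD2 and SYF2, with control means between 0.130% at CTNNBL1 and 2.78% at EFTUD2.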

How the data were processed

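Peak lists of 4 KAS-seq libraries (2 vitamin C, 2 control) were used. The submitters' processing notes name MACS2 2.2.7.1, Bowtie2 2.4.5, bcl2fastq 2.19 and the build hg38, next to deepTools, cutadapt and Trim Galore. Neither their order nor their settings are given there. Each list was deposited per library, and no value was pooled. For every peak the deposited lists give a display score, a fold enrichment (a ratio over background), a −log10 p and a −log10 q, as well as its position and summit. These values are the authors' own, and the fold and the −log10 q were used only within a list, to order or select its peaks. The lowest deposited −log10 q was between 2.00 and 2.02 in each list. Only chromosomes 1 to 22 and X were used, which left out 4.23% to 5.06% of a list. Depth was not given, so precision rests on 2 libraries per group.

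Genes and promoter sequences came from RefSeq tables of GRCh38.p14, the build of hg38, and 57 of the 65 members matched the promoter table and so had a strand. Coverage is the percent of the annotated gene under the union of a list's peaks, and presence, peak numbers and shares use the gene widened by 1 kb. Comparisons of groups used an exact permutation test over libraries (two-sided), with scipy 1.17.1, pandas 2.3.3 and numpy 2.4.6 in Python 3.11.15. The members and the list of other splicing genes were chosen with earlier results of these data known. Values are printed for the 4 members of highest control coverage in each group, for every lost member, for the 5 largest and 5 smallest ratios to control, and for members that a further result turns on, which were picked after their values were seen. One marker of another cell type is not reported here. The calculations were tested on simulated lists. Alternatives were lists of equal length, stricter q and fold thresholds, other windows and overlaps, peaks without other genes, 1 library left out at a time and a replicate block.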

Additional observations from a re-analysis of the deposited data

How the results depend on the processing

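In all, 19 results were recomputed in 188 combinations with an alternative, and 175 kept their direction and, for counts, stayed within 1.5 times of the reported count. The values of the replicate block are among them, and most of those could not change, as stated below. The length of the lists mattered most. In lists of equal length, 0 members were lost, 3 gained, 3 SF3A and SF3B genes kept and 30 members lower, the number of members with a peak differed by +1 and the log2 ratio of peak numbers was 0.13, both with the sign turned. There the mean difference in coverage was 1.99 points at SF3A2, 0.00662 at SF3B1, 0.667 at SF3B2, 7.68 at SF3B5, 0.664 at SF3B6 and 1.09 at SNRPD3. With a fold of at least 6.055, the median of control replicate 1, 5 members were lost and 3 SF3A and SF3B genes kept, and the difference at HNRNPA2B1 was 11.97 points. Leaving out 1 library gave 3 to 6 lost members, with 6 without either vitamin C replicate, and 0 to 1 gained, with 1 without control replicate 1. The start-zone share differed by -0.567 to 1.19 points then, negative without vitamin C replicate 1, and by -0.705 points with zones of 2 kb. Of 520 recomputed differences of single genes, 14 had the sign turned. None could turn at the 8 members without a peak, nor, with 1 library left out, at the 49 members whose groups lay apart. Of the 14 turned values, those given above account for 7, and the other 7 were at genes whose groups overlapped as deposited. They were 3.22 points at SNRPF at equal length and without control replicate 1 and 1.75 with the fold threshold, 0.292 at HNRNPLL without control replicate 1 and 0.212 without vitamin C replicate 1, and -5.06 at HNRNPH2 without vitamin C replicate 1 and -2.45 with genes widened by 5 kb. Counting these 7 at genes with overlapping groups, 28 values moved. The rest of the 28 were at genes whose groups lay apart as deposited and no longer did. The cause of the changes beyond the shorter lists was not tested. For members kept, lost or gained under an alternative, the share of all protein-coding genes was not taken. The replicate numbers were not shown to pair the libraries (r = 0.04 across 9486 genes, which are not replicates). With the replicate number as a block covered length gave a log2 ratio of -1.20 and peak numbers -0.86, the members with a peak differed by -6, the median coverage by -12.6 points and the share by 0.753 points, and 45 were kept, 3 lost and 0 gained. By construction the block leaves differences of means and these counts unchanged, so only the log2 ratios could differ. Positions without each library and without neighbouring genes were added after seeing the data. Peaks without a known depth limit any statement on genes that no list covers.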
